A study of Homo sapiens
Mus musculus and Mus musculus and Homo sapiens with 3 samples.

Results

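A set of human progenitor cells that carried transcripts of the caudal homeobox genes CDX1 and CDX2 was described from single-cell RNA sequencing of motor neuron differentiation. A cell belonged to the set when it held at least 2 unique molecular identifiers (UMIs, each counting 1 captured RNA molecule) of CDX1 and CDX2 together, at least 1 UMI of SOX2, a transcription factor of neural progenitors, and no UMI of STMN2, a neuronal gene. These CDX-positive progenitors numbered 408 of the 9115 cells in all files of the series, with 226 in human replicate 1 and 182 in human replicate 2. They were set against 1330 CDX-free progenitors of the same libraries (761 and 569), which met the same SOX2 and STMN2 conditions and held no CDX1 or CDX2 UMI. A further 306 cells with exactly 1 CDX UMI were in neither class.

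Human replicate 1 was the line NCRM1, an induced pluripotent stem cell line, and shared a droplet library with C57BL/6 mouse embryonic stem cells. Human replicate 2 was the line RUES1, labelled as an induced pluripotent line. Both lines, and so both classes of cells, carried a lentiviral GFP reporter driven by CAGGS with a 6 bp barcode, were differentiated in vitro towards motor neurons as embryoid bodies, and were sorted for GFP after papain and DNase I. Human cultures were sampled every 48 h, but the tables do not carry the sampling day, so a difference between classes and a difference in day cannot be told apart. Each class was sampled in 2 libraries of 2 lines. Each p-value and standard error (SE) covers only these libraries and rests on a spread estimated in part from all genes tested. For a single gene it is thus not a measure of that gene's own spread between the 2 libraries alone.

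CDX proteins are transcription factors that switch on trunk HOX genes in the posterior embryo, where WNT and FGF signals maintain caudal progenitors and retinoic acid from the mesoderm promotes their maturation into spinal cord. LIN28 proteins are RNA-binding proteins that block the maturation of let-7 microRNAs and are lost as neural progenitors age, while nuclear factor I proteins and SOX9 mark older progenitors that begin to make glia. Motor neuron progenitors are defined by OLIG2, between the NKX2-2 domain below and the IRX3 domain above.

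Cells were kept from 7000 UMIs and 500 genes upwards and up to a mitochondrial share of 10%, which left 1937 and 1473 human cells. CDX-positive cells were deeper than CDX-free cells, with medians of 16971.5 against 12181 UMIs in replicate 1 and 27708 against 18583 in replicate 2. Median mitochondrial shares were 4.37% against 3.37% and 5.18% against 5.34%. Of 60 barcodes shared with the mouse part of the mixed library, 44 otherwise passing cells were dropped, and the human libraries shared 0 barcodes with each other. Levels below are UMIs per 1000000 UMIs (CPM) in the summed cells of a class over 29570 symbols found in both human files. These files were counted on different gene annotations (32739 and 56832 entries), so levels were compared between classes within a library.

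CDX-positive cells made up 19.4% of SOX2-positive, STMN2-negative cells in replicate 1 (226 of 1167, exact 95% interval 17.1 to 21.8%) and 20.8% in replicate 2 (182 of 877, 18.1 to 23.6%). These intervals cover counting error only. The shares depended on depth: with each cell thinned at random to 7000 UMIs before the gate, they were 8.30% and 4.58%. CDX1 lies on chromosome 5 (150166778 to 150184558) and CDX2 on chromosome 13 (27960918 to 27969315, RefSeq GRCh38.p14). The gate genes were chosen on their counts and are given as a description. CDX1 gave 334 UMIs in the members of replicate 1 and 426 in those of replicate 2, and CDX2 gave 465 and 247. Both genes were detected in 114 and 96 members, CDX1 alone in 35 and 49, and CDX2 alone in 77 and 37. The median member held 3 CDX UMIs in each library and the highest held 12 and 13. SOX2 stood at 371 CPM in CDX-positive and 372 CPM in CDX-free cells of replicate 1, and at 517 and 397 CPM in replicate 2.

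**Figure D1:**
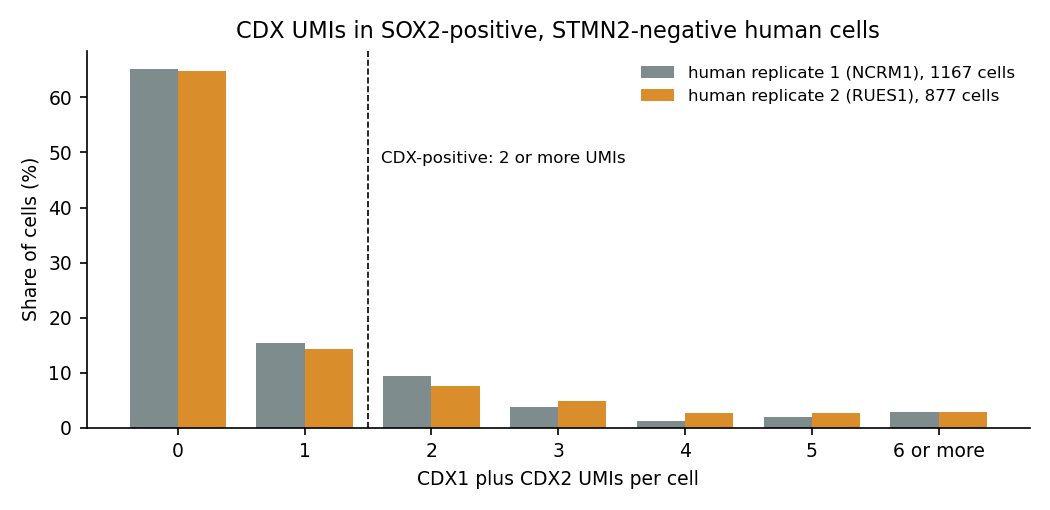
Share of SOX2-positive, STMN2-negative human cells (vertical axis, %) by their CDX1 plus CDX2 UMIs (horizontal axis), with 1 bar per library (1167 and 877 cells). The dashed line is the gate of 2 UMIs, and the 408 members fall off steeply above it with no gap between cells that hold 1 UMI and cells that hold 2.

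Neurons were set beside the progenitors for CDX UMIs, since droplets also take up free RNA. Among cells with at least 10 STMN2 UMIs and no SOX2, taken as neurons, 25 of 252 (9.92%) and 26 of 278 (9.35%) held 2 or more CDX UMIs at median depths of 9964.5 and 16968 UMIs. With each cell thinned to 7000 UMIs these shares were 6.75% and 4.32%, with neurons still chosen on full counts. The progenitor share in replicate 2 (4.58%), gated on thinned counts, was then hardly above the neuronal one. Over all SOX2-positive, STMN2-negative cells, whatever their CDX count, CDX1 stood at 22.6 CPM in replicate 1 and 25.7 CPM in replicate 2, against 1.95 and 0.866 CPM in neurons. CDX2 had the opposite order, at 37.6 and 17.3 CPM in those cells and at 52.2 and 25.6 CPM in neurons. By level over all these progenitors, CDX1 was thus above its level in neurons in both libraries and CDX2 was below it. The neuronal UMIs were 134 and 118 of CDX2 against 5 and 4 of CDX1, a ratio unlike that in members. Single neurons held up to 10 CDX UMIs in replicate 1 and up to 11 in replicate 2. The part of free RNA in the CDX2 counts of either cell type was not tested. The same gate applied to the mouse files found 1 of 1198 and 9 of 1474 progenitors.

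The label of a caudal progenitor was checked against markers of neuromesodermal cells, the early caudal cells that give rise to both spinal cord and mesoderm. TBXT, their defining transcription factor, gave 10 UMIs in all members of replicate 1 and 0 in replicate 2, against 2 and 0 in CDX-free cells. CDX4, the third CDX gene, gave 17 and 0 against 2 and 0. WNT3A gave 1 and 0 against 0 and 7, and NKX1-2 gave 0 and 0 against 0 and 1. A count of 0 over all members allows a level of up to 0.753 CPM in replicate 1 and 0.569 CPM in replicate 2 (3 counts). The pluripotency genes POU5F1 and NANOG gave 1 UMI each in members of replicate 1 and 0 in those of replicate 2. In CDX-free cells POU5F1 gave 1 and 0 and NANOG 3 and 2. TBXT, CDX4, WNT3A and NKX1-2 were thus near 0 in members, with more TBXT and CDX4 UMIs than in CDX-free cells in replicate 1 alone. The whole list of 18 caudal epiblast and neuromesodermal genes was not near 0: it summed to 185 against 154 CPM in replicate 1 and to 302 against 367 CPM in replicate 2. CYP26A1 and GREB1, an oestrogen-responsive gene at 31.6 and 57.1 CPM in members, made up most of that sum, and 5 of the 18 genes were at 0 in members of both libraries. LIN28A and SFRP2 had been named as markers of the set from earlier results on these data, so their differences below are not independent of the choice.

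Summed counts of both classes were compared with edgeR's quasi-likelihood test, with the library as a block and 1 residual degree of freedom. Of 12570 genes tested, 80 (0.636%) were higher and 215 (1.71%) were lower in CDX-positive progenitors at a Benjamini-Hochberg adjusted p under 0.05, and the median log2 fold change of all genes was -0.01. The gate genes were not tested. DESeq2 called 28 higher and 68 lower, of which 27 and 66 were among the edgeR calls, and without the library block edgeR called 0 in each direction (212 genes had an unadjusted p under 0.05). Of the 73 called genes for which the alternatives were followed one by one, 26 were tested but not called by DESeq2, among them LIN28B, SFRP2, DUSP6, FGFR3, FZD10, ROR2, IRX5, NKX2-2, HES1, HEY1, SOX9, ZBTB20, PDGFRA, LSR, RARA, GLI3, SHH, FEN1, JUN and ZIC1. With cells thinned to 7000 UMIs before summing, 12 lost their call, including LIN28B, FZD10, WNT7B, IRX5, NKX2-2, HES1, HEY1, ZBTB20 and GLI3. In settings with fewer cells, 57 of the 73 lost their call at a mitochondrial share of at most 5%, and 28 in cells without OLIG2 UMIs.

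Of 13 tested genes that mark an early stage of neural development, 3 were higher in CDX-positive cells (0.636% of all genes were) and 0 were lower. The 3 include LIN28A, a named marker of the set, so the count is not independent of that choice. LIN28A (chromosome 1, 26410817 to 26429728) stood at 74.4 CPM in CDX-positive and 28.9 CPM in CDX-free cells of replicate 1, and at 77.4 and 33.2 CPM in replicate 2. The classes did not overlap, and the fitted log2 fold change was 1.30 ± 0.14 (SE, n = 2 libraries, edgeR adjusted p = 2.84e-03). At 7000 UMIs per cell, LIN28A was detected in 38.9% of CDX-positive against 16.2% of CDX-free cells in replicate 1 and in 34.1% against 17.9% in replicate 2. Its shares in neurons were 16.7% and 11.9%. LIN28B, its paralogue, was at 17.8 against 11.7 CPM and at 74.96 against 40.7 CPM (log2 fold change 0.78 ± 0.16, edgeR adjusted p = 0.0393). Its call was lost with DESeq2 (adjusted p = 0.411), with thinned counts (edgeR adjusted p = 0.105) and without cells that held 3 or more UMIs of other cell types (edgeR adjusted p = 0.0605). PRTG, a cell surface receptor of the early neural tube, was at 241 against 144 CPM and at 459 against 230.3 CPM (0.88 ± 0.13, edgeR adjusted p = 9.14e-03).

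These 3 genes were the called members of a list of 14 RNA-binding and chromatin genes of early stages. Of the 13 tested, 11 had a log2 fold change above 0, and the list's median was 0.47. HMGA1, a chromatin protein with 1729 against 1509 CPM and 1112 against 825 CPM, did not pass (log2 fold change 0.32, edgeR adjusted p = 0.226), nor did HMGA2 (0.43, edgeR adjusted p = 0.12) or IGF2BP1 (0.47, edgeR adjusted p = 0.103). L1TD1, an RNA-binding protein best known from pluripotent cells, was at 42.0 against 7.19 CPM and at 30.5 against 8.43 CPM (2.20 ± 0.21, edgeR adjusted p = 1.53e-03). DPPA4, another gene of pluripotent cells, was at 57.3 against 59.9 CPM and at 70.8 against 74.7 CPM and was not called.

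**Figure D2:**
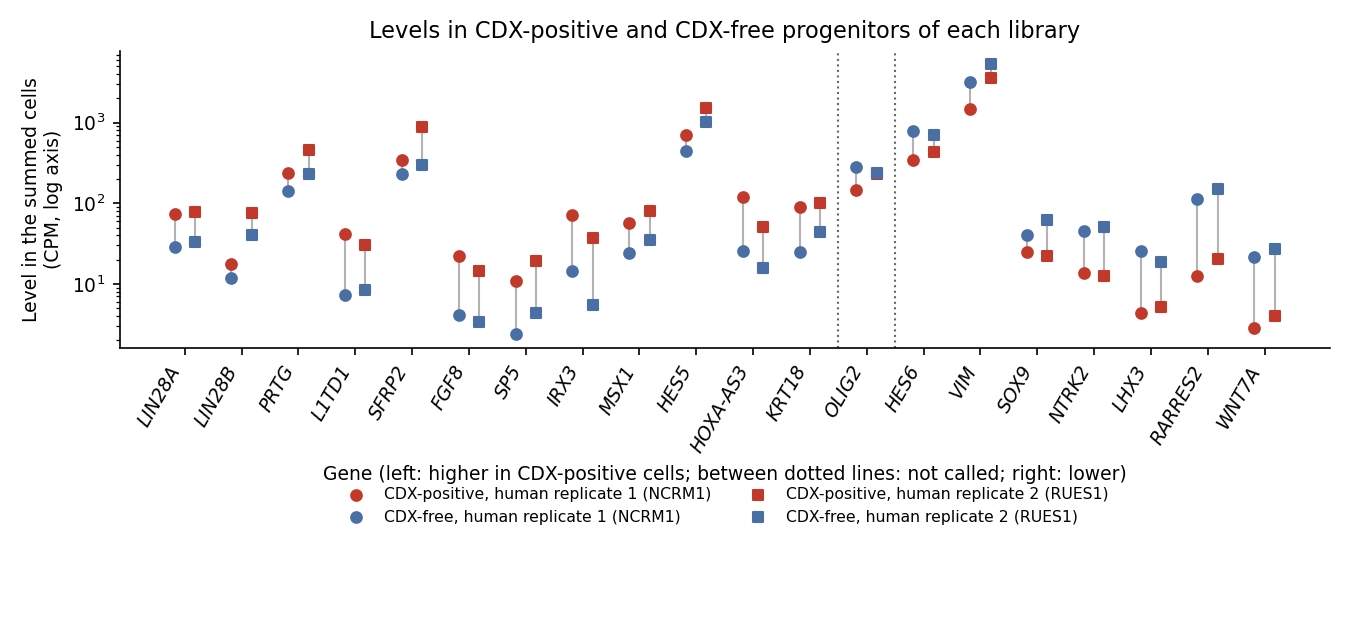
Level in the summed cells (vertical axis, CPM, log axis) of 20 genes (horizontal axis) in CDX-positive (red) and CDX-free (blue) progenitors of replicate 1 (circles) and replicate 2 (squares), each pair joined by a line. The 12 genes on the left are higher in both libraries and the 7 on the right lower, while the OLIG2 pair is apart in replicate 1 (144 and 286) and nearly level in replicate 2 (233 and 238).

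Of 23 listed late progenitor and gliogenic genes, 19 were tested, 0 were called higher and 7 were called lower (1.71% of all genes were), with a list median of -0.87 and 1 gene above 0. NTRK2, the receptor of the growth factor BDNF, stood at 13.5 CPM in CDX-positive and 45.6 CPM in CDX-free cells of replicate 1, and at 12.4 and 50.9 CPM in replicate 2 (log2 fold change -1.89 ± 0.17, edgeR adjusted p = 1.09e-03). SOX9 was at 24.96 against 39.9 CPM and at 22.1 against 61.6 CPM (-1.09 ± 0.20, edgeR adjusted p = 0.0244). Its call was lost without cells that held 3 or more UMIs of other cell types, and was kept among OLIG2-positive cells. TTYH1, a membrane protein of radial glia, was the most abundant of the called genes, at 441 against 747 CPM and at 558 against 922 CPM (-0.73 ± 0.12, edgeR adjusted p = 0.0135). NFIB, a nuclear factor I gene, gave 1 and 7 UMIs in all CDX-positive cells of the 2 libraries, against 11 and 100 UMIs in CDX-free cells. In replicate 2 it stood at 22.8 CPM in OLIG2-negative CDX-free cells, where the mesenchymal gene LUM stood at 424 CPM, and at 1.89 CPM in OLIG2-positive CDX-free cells, where LUM stood at 7.57 CPM. The part of mesodermal cells in the NFIB difference was not tested beyond these levels. POU3F3, a POU homeobox factor of neural cells, gave 3 and 39 UMIs against 106 and 285. PDGFRA, a receptor of oligodendrocyte precursors and mesenchyme, and ZBTB20, a repressor active in glial cells, were the other called genes, at log2 fold changes of -2.41 and -1.04. PDGFRA stood at 0.764 against 1.34 CPM in replicate 1 and at 2.41 against 16.6 CPM in replicate 2, the library with mesodermal cells. NFIA, with 1 and 14 UMIs in CDX-positive cells, missed the threshold (-1.89, edgeR adjusted p = 0.0588), and so did FABP7, a fatty acid binding protein of radial glia (-0.46, edgeR adjusted p = 0.15). SOX10, which defines oligodendrocyte precursors and neural crest, gave 0 UMIs in the CDX-positive cells of both libraries, against 0 and 1 in CDX-free cells.

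Genes of the caudal FGF and WNT environment were higher in part. FGF8, a ligand of the caudal growth zone, was at 21.9 against 4.11 CPM in replicate 1 and at 14.6 against 3.37 CPM in replicate 2 (log2 fold change 2.27 ± 0.24, edgeR adjusted p = 2.4e-03). It was detected in 57 of 226 and 37 of 182 members. SP5, a direct WNT target, was at 10.7 against 2.36 CPM and at 19.0 against 4.40 CPM (2.14 ± 0.26, edgeR adjusted p = 3.84e-03). These were the 2 called of 9 tested caudal genes in a list of 18 (median 0.40, 6 above 0), where 0.636% of all genes were called higher. Both calls were lost at a mitochondrial share of at most 5% (edgeR adjusted p = 0.11 for FGF8 and 0.13 for SP5). They were also lost in cells without OLIG2 UMIs (log2 fold changes 0.80 and 0.93, edgeR adjusted p = 0.677 and 0.72). FGF8 was not called with OLIG2 class as a term (edgeR adjusted p = 0.0571), and both were called among OLIG2-positive cells. CYP26A1, which breaks down retinoic acid in the caudal embryo, was level in replicate 1 at 85.1 against 85.9 CPM and stood at 135 against 222 CPM in replicate 2, and was not called (edgeR adjusted p = 0.298).

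Of all genes, 0.636% were called higher and 1.71% lower. Among the 18 tested genes of FGF signalling and ERK feedback, 3 were called higher, 1 was called lower, 12 were above 0 and the median was 0.42. Besides FGF8 these were the feedback inhibitors SPRY1 (68.3 against 21.0 CPM and 47.1 against 27.3 CPM, log2 fold change 1.25) and DUSP6 (125 against 80.1 CPM and 179 against 111 CPM, 0.68). The receptor FGFR3, a gene of later progenitors, was lower at 19.9 against 35.8 CPM and 42.3 against 80.0 CPM (-0.88). FGF18, another ligand, was higher by 1.10 ± 0.19 on the log2 scale, at 46.6 against 30.2 CPM and at 188 against 67.7 CPM.

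The WNT list split, with 3 of 17 tested genes higher, 3 lower (0.636% and 1.71% of all genes were) and a median of -0.05. The higher genes include SFRP2, a named marker of the set, so their count is not independent of that choice. SFRP2, a secreted WNT modulator of ventral spinal progenitors, was the most abundant, at 339.5 against 233 CPM in replicate 1 and at 883 against 298 CPM in replicate 2. Its fitted log2 fold change was 1.07 ± 0.21 (edgeR adjusted p = 0.0298), and the fold was 1.46 in replicate 1 and 2.96 in replicate 2. DESeq2 did not call it (adjusted p = 0.671), and neither did edgeR with the gate set on thinned cells (0.39, adjusted p = 0.0957). The receptor FZD10 was higher (log2 fold change 1.18), as was ROR2, a receptor of WNT5A outside the list (32.1 against 11.9 CPM and 23.3 against 11.3 CPM, 1.24). The ligands WNT4 and WNT7B and the secreted inhibitor FRZB were lower (-2.61, -3.22 and -1.31). WNT7A, a ligand of the neural tube, was lower by 2.81 ± 0.24 on the log2 scale, at 2.80 against 21.6 CPM and at 4.01 against 26.8 CPM (edgeR adjusted p = 6.66e-04).

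In the retinoic acid list 0 of 15 tested genes were called higher and 2 lower (0.636% and 1.71% of all genes were). Of the 15, 4 were above 0 and the median was -0.31. The receptor RARA stood at 20.4 against 42.2 CPM and at 34.1 against 57.2 CPM (log2 fold change -0.88, edgeR adjusted p = 0.0238). DHRS3, a retinaldehyde reductase that retinoic acid induces, stood at 16.3 against 35.8 CPM and at 32.5 against 77.2 CPM (-1.19, edgeR adjusted p = 6.23e-03). RARRES2, which encodes the secreted protein chemerin and is a retinoid-responsive gene, had the lowest fold change of the genes named by size. It was at 12.5 against 115 CPM and at 20.2 against 150.2 CPM (-3.02 ± 0.16, edgeR adjusted p = 7.69e-05).

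HOX genes were present in CDX-positive cells up to paralogue group 9 and hardly differed in sum from CDX-free cells. The 38 HOX genes described here together gave 1508 against 1410.0 CPM in replicate 1 and 1379 against 1480.0 CPM in replicate 2. Groups 10 to 13, which pattern the lumbar and sacral trunk, gave 1 UMI over all members of replicate 1 and 0 over those of replicate 2. CDX-free cells were near 0 too, at 0.513 and 0.374 CPM. Of the 38 genes, 25 were tested, and 0 were called higher and 4 lower (0.636% and 1.71% of all genes were). Of the 25 tested, 7 were above 0 and the median was -0.12. HOXA5, a cervical and brachial gene, was at 11.5 against 23.9 CPM and at 17.0 against 34.5 CPM (-1.03 ± 0.18, edgeR adjusted p = 0.0192). HOXA4 (-1.16), HOXB6 (-0.95) and HOXD8 (-1.13) were the other lower genes, and DESeq2 called none of these 4.

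The genes called lower lay in paralogue groups 4 to 8. Summed over group 5, the level in CDX-positive cells was 0.739 of that in CDX-free cells in replicate 1 and 0.433 in replicate 2. Group 9 was at 1.14 and 1.15 of the CDX-free level. In groups 1 to 4 the median log2 fold change of 11 tested genes was -0.01 with 5 above 0, and in groups 5 to 9 it was -0.23 over 14 tested genes with 2 above 0. HOXB9, a thoracic gene and the most abundant HOX gene, was at 375 against 287 CPM and at 338 against 277.5 CPM, and was not called (0.34, edgeR adjusted p = 0.183).

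**Figure D3:**
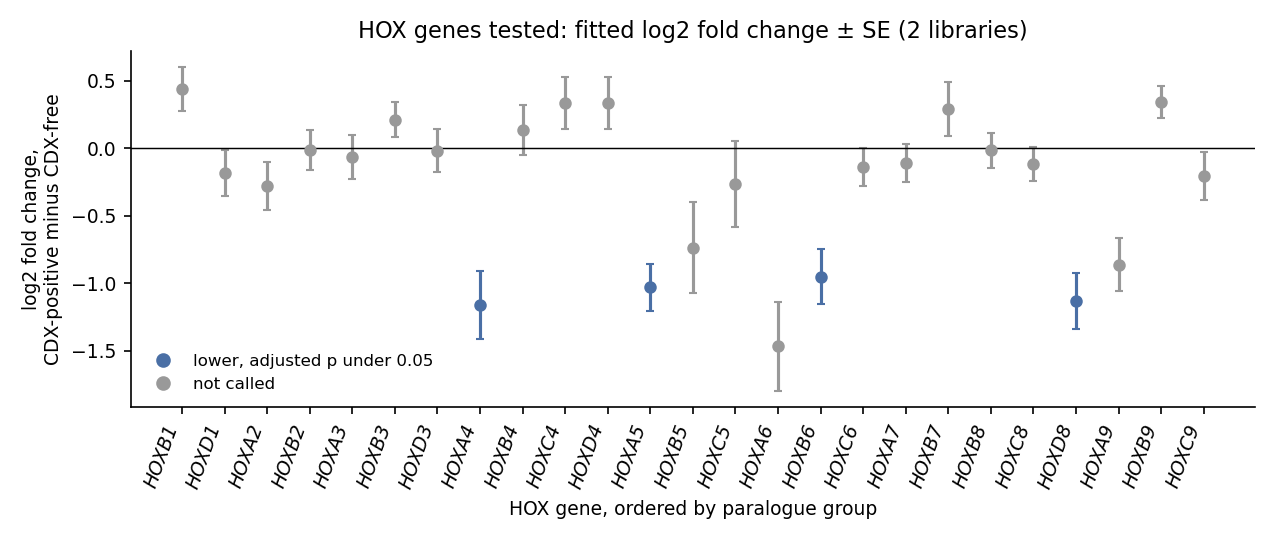
Fitted log2 fold change of the 25 tested HOX genes described here (vertical axis, CDX-positive minus CDX-free, points with SE bars from 2 libraries) in order of paralogue group (horizontal axis). HOXA4, HOXA5, HOXB6 and HOXD8 are called lower (blue), and the remaining 21 genes (grey) are not called.

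Long noncoding RNAs of the same clusters stood higher. HOXA-AS3 (chromosome 7, 27140364 to 27155928) was at 119 against 25.5 CPM in replicate 1 and at 50.9 against 15.5 CPM in replicate 2 (log2 fold change 1.99 ± 0.17, edgeR adjusted p = 6.66e-04). At 7000 UMIs per cell it was detected in 46.0% of CDX-positive against 14.2% of CDX-free cells, and in 24.7% against 9.0%. HOXB-AS3 (chromosome 17, 48590420 to 48606414), which was selected after its values were seen, was at 1116 against 533 CPM and at 1295 against 735 CPM (0.95 ± 0.12, edgeR adjusted p = 6.1e-03). In RefSeq, HOXA-AS3 overlaps HOXA3, HOXA5, HOXA6 and HOXA7, and HOXB-AS3 overlaps HOXB5 and HOXB6. The sources used here do not say whether counting used the strand, so reads of each antisense gene and of its partners cannot be told apart, and the opposite directions of HOXA-AS3 and HOXA5 are given as counted.

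Genes of the dorsoventral code were called in both directions, where 0.636% of all genes were called higher and 1.71% lower. IRX3, a homeobox factor of intermediate progenitors above that domain, had the largest fold change of the higher genes named by size. It stood at 70.8 CPM in CDX-positive and 14.3 CPM in CDX-free cells of replicate 1, and at 36.7 and 5.52 CPM in replicate 2 (log2 fold change 2.50 ± 0.18, edgeR adjusted p = 4.24e-04). IRX5, its neighbour in the same gene cluster, was higher by 1.77 ± 0.26 on the log2 scale. MSX1, a dorsal homeobox factor, was at 56.5 against 24.4 CPM and at 80.8 against 35.3 CPM (1.21 ± 0.14, edgeR adjusted p = 3.79e-03). ZIC1, a zinc finger factor of dorsal neural tube and somites, was lower (-2.91 ± 0.39, edgeR adjusted p = 6.53e-03), but it gave 0 against 2 UMIs in replicate 1, so its call rests on replicate 2 (3.01 against 22.8 CPM). These were the 1 higher and 1 lower of 6 tested dorsal genes in a list of 17 (median 0.08, 4 above 0). PAX6, which spans intermediate and ventral progenitors, was at 78.7 against 57.8 CPM and at 68.8 against 27.8 CPM and just missed the threshold (0.87, edgeR adjusted p = 0.0548). NKX2-2, which marks the p3 domain below motor neuron progenitors, was lower at 1.02 against 5.96 CPM and at 8.42 against 19.2 CPM (-1.48 ± 0.32, edgeR adjusted p = 0.0432). Its call was lost with DESeq2 (adjusted p = 0.35), with the gate on thinned cells (edgeR adjusted p = 0.245), with thinned counts (0.115) and with OLIG2 class as a term (0.118). LHX3, a factor of newborn motor neurons and V2 interneurons, was lower at 4.33 against 25.5 CPM and at 5.21 against 18.9 CPM (-2.17 ± 0.25, edgeR adjusted p = 3.34e-03). Of the 11 tested ventral and intermediate genes, IRX3 and IRX5 were the 2 higher and NKX2-2 and LHX3 the 2 lower, with a median of 0.05. SHH, the ventral morphogen, was called lower (-1.90), but it gave 0 UMIs in both classes of replicate 1, so its call rests on replicate 2 alone (9.02 against 34.2 CPM).

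The share of cells with OLIG2 went opposite ways in the 2 libraries, but its level did not. At 7000 UMIs per cell, 48.7% of CDX-positive cells in replicate 1 held an OLIG2 UMI (exact 95% interval 42.0 to 55.4%), against 71.0% of CDX-free cells (67.6 to 74.2%). In replicate 2 the shares were 64.8% (57.4 to 71.8%) against 54.8% (50.6 to 59.0%). The differences were -22.3 and 10.0 percentage points, and with 2 libraries a sign-flip permutation test of them cannot reach p < 0.05. By level, OLIG2 was at 144 against 286 CPM in replicate 1 and at 233 against 238 CPM in replicate 2, and was not called (log2 fold change -0.50 ± 0.20, edgeR adjusted p = 0.246).

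**Figure D4:**
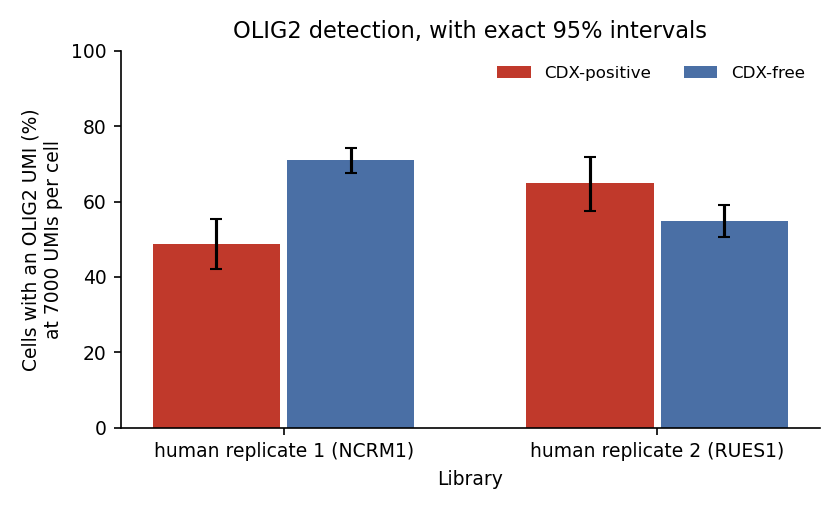
Share of cells with at least 1 OLIG2 UMI after thinning to 7000 UMIs (vertical axis, %) in CDX-positive (red) and CDX-free (blue) progenitors of each library, with exact 95% intervals as error bars. The CDX-positive bar is the lower one in replicate 1 (48.7% against 71.0%) and the higher one in replicate 2 (64.8% against 54.8%).

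The CDX-free class of replicate 2 also held cells with mesodermal transcripts. Summed over the mesoderm marker list of 18 genes, CDX-free cells stood at 45.3 and 842 CPM in replicates 1 and 2 and CDX-positive cells at 32.9 and 196 CPM. Of the 14 tested mesoderm genes, 7 were called lower and 0 higher in CDX-positive cells (1.71% and 0.636% of all genes were). LUM and COL1A2, matrix genes of mesenchyme, were at 156 and 146 CPM in CDX-free cells of replicate 2 and at 26.7 and 25.5 CPM in CDX-positive cells. In that library 71 of 569 CDX-free cells held 10 or more COL1A2 UMIs, against 5 of 182 CDX-positive cells. In both classes without cells that held 3 or more UMIs of mesoderm, gut endoderm or neural crest markers, OLIG2 was lower in CDX-positive cells of both libraries. Its levels were then 147 against 310 CPM and 249.6 against 398 CPM (log2 fold change -0.87, edgeR adjusted p = 5.79e-08). With only the cells that held 20 or more such UMIs removed, OLIG2 was at 145 against 290.2 CPM and at 242 against 302 CPM. LIN28A (1.05) and IRX3 (2.10) were still higher without the cells that held 3 or more.

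Of 14 tested proneural and cell cycle exit genes of neurogenesis, 0 were higher and 3 were lower, with 3 above 0 and a median of -0.47. Over all genes, 0.636% were called higher and 1.71% lower. HES6, which promotes neuronal commitment, was at 345 against 785 CPM and at 428 against 704 CPM (log2 fold change -0.94 ± 0.14, edgeR adjusted p = 0.0112). GADD45G was at 41.0 against 119 CPM and at 46.5 against 82.4 CPM (-1.17 ± 0.18, edgeR adjusted p = 0.0123). The proneural factor NEUROG1 was at 40.0 against 86.5 CPM and at 6.61 against 26.4 CPM (-1.44 ± 0.21, edgeR adjusted p = 9.43e-03). NEUROG2, the proneural factor of motor neuron progenitors, went opposite ways, at 68.3 against 143 CPM and at 153 against 94.1 CPM, and was not called (edgeR adjusted p = 0.879). Of 11 tested neuronal markers, 0 were higher and 2 were lower, with 3 above 0 and a median of -0.305. These 2 were ELAVL3, an RNA-binding protein of newborn neurons (-1.44), and ISL1, a motor neuron homeobox factor (-3.11). ISL1 gave 2 and 2 UMIs in CDX-positive cells, and both calls were lost with the gate on thinned cells. The condition of 0 STMN2 UMIs is stricter in the deeper CDX-positive cells, and the part of depth was not tested. SNCG, a synuclein, was lower too (-2.06).

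Progenitor and Notch genes were called in both directions, and most genes of both lists were below 0. Of 15 tested progenitor genes, 2 were higher and 1 was lower (0.636% and 1.71% of all genes were). In that list 6 were above 0 and the median was -0.373. Of 14 tested Notch genes, 1 was higher and 2 were lower, with 4 above 0 and a median of -0.399. HES5 counts in both lists. HES5, a Notch target that holds cells in the progenitor state, was at 701 against 451 CPM and at 1515 against 1021 CPM (log2 fold change 0.61 ± 0.12, edgeR adjusted p = 0.0278). FABP5, a fatty acid binding protein, was higher by 0.61. HES1 (114 against 165 CPM and 131 against 226.5 CPM, -0.66) and HEY1 (-1.04), 2 further Notch targets, were lower. VIM, an intermediate filament of progenitors, was lower at 1487 against 3227 CPM and at 3568 against 5308 CPM (-0.84 ± 0.15, edgeR adjusted p = 0.0216).

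Of the cell cycle genes few were called, as were few of all genes (0.636% higher and 1.71% lower). All 19 tested S-phase genes had a log2 fold change above 0 (median 0.43, from 0.06 to 0.65), but only FEN1, a DNA replication nuclease, was called (88.6 against 59.6 CPM in replicate 1, log2 fold change 0.65 ± 0.13, edgeR adjusted p = 0.0353). All 20 tested genes of G2 and M phase were above 0 in the fit (median 0.34) and 0 were called, but the 2 libraries differed. In replicate 1 the list summed to 2725 against 2685 CPM with 10 of 20 genes higher in CDX-positive cells, and in replicate 2 to 4627 against 2989 CPM with 20 of 20. The S-phase list had 18 of 19 and 19 of 19 genes higher. CCND1, the D-type cyclin, was called higher at 705 against 510 CPM and at 757 against 489 CPM (0.56 ± 0.12, edgeR adjusted p = 0.0445). No glycolysis gene was called among 15 tested (median -0.04). In the list of handling stress and immediate early genes, 5 of 14 were lower, 0 were higher and the median was -0.72. JUN stood at 91.7 against 143 CPM and at 57.9 against 240.4 CPM, and DUSP1 at 42.8 against 87.4 CPM and at 44.5 against 84.3 CPM. The part of handling stress in the differences between classes was not tested.

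KRT18, a keratin of simple epithelia, was higher at 90.2 against 24.8 CPM and at 102 against 44.0 CPM (log2 fold change 1.53 ± 0.17, edgeR adjusted p = 3.03e-03), but 1 cell carried much of it in replicate 2. That member held 459 of the 895 KRT8 and KRT18 UMIs of the class, together with all 307 UMIs of APOA2, 86 of TTR and 9 of SOX17, which are endoderm genes. In both classes without cells that held 10 or more keratin UMIs, KRT18 was at 78.2 against 22.0 CPM and at 36.5 against 20.1 CPM and was still called (1.37, edgeR adjusted p = 5.56e-04). KRT8 was not called in all cells (1.13, edgeR adjusted p = 0.0947). Without the keratin-rich cells its levels were 60.2 against 14.1 CPM in replicate 1 and 19.3 against 23.5 CPM in replicate 2, where the order was turned. Of the other gut endoderm markers, GATA4, HNF4A and AFP gave 0 UMIs in CDX-positive cells of both libraries, and 0 of the 7 tested were called.

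Other large differences were in genes of varied function. C3orf52, a membrane protein gene, was at 68.3 against 11.5 CPM and at 30.7 against 6.65 CPM (log2 fold change 2.41 ± 0.18, edgeR adjusted p = 4.24e-04). LSR, a receptor of tricellular junctions, and FAM159B were higher by 1.11 and 1.17. GLI3, a transcription factor of the hedgehog pathway, was higher by 0.98. Among the lower genes, SPP1 encodes the secreted protein osteopontin (3.57 against 23.9 CPM and 10.8 against 57.6 CPM, -2.51), ABAT breaks down GABA (-2.06), COL5A2 is a fibrillar collagen (-1.90), SEMA6B is a guidance molecule (-1.82), PAPPA is a secreted protease (-1.80), HS6ST1 modifies heparan sulfate (-1.74) and PMAIP1 promotes apoptosis (-1.72). PPP1R14A, an inhibitor of myosin phosphatase, was lower by 1.56 on the log2 scale. URAD, selected after its values were seen because it lies 8402 bp from CDX2 in RefSeq, was at 33.4 against 4.83 CPM and at 11.8 against 1.78 CPM (2.77 ± 0.24, edgeR adjusted p = 6.66e-04).

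Several differences grew with the number of CDX UMIs per cell, and cells with 1 CDX UMI lay between the classes for several genes. In cells with 0, 1, 2, 3 and at least 4 CDX UMIs, LIN28A was at 28.9, 57.5, 69.1, 70.2 and 82.5 CPM in replicate 1 and at 33.2, 57.1, 66.6, 69.5 and 89.1 CPM in replicate 2. The step from 1 to 2 UMIs, where the gate lies, was thus smaller than the step from 0 to 1. HOXA-AS3 went from 25.5 through 61.0, 73.3 and 131.0 to 166 CPM, and from 15.5 through 26.5, 47.4 and 43.5 to 57.3 CPM. HOXA5 stepped the other way, from 23.9 to 10.8 CPM in replicate 1 and from 34.5 to 12.1 CPM in replicate 2. OLIG2 stepped from 286 to 120.4 CPM in replicate 1 and stood between 188 and 262 CPM in all groups of replicate 2. Median depth also differed, at 12181 UMIs in cells with no CDX UMI, 13463.5 in cells with 1 and 16971.5 in members of replicate 1, and at 18583, 24861.5 and 27708 in replicate 2. These groups are a description without a test, and the part of depth in them was not tested.

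**Figure D5:**
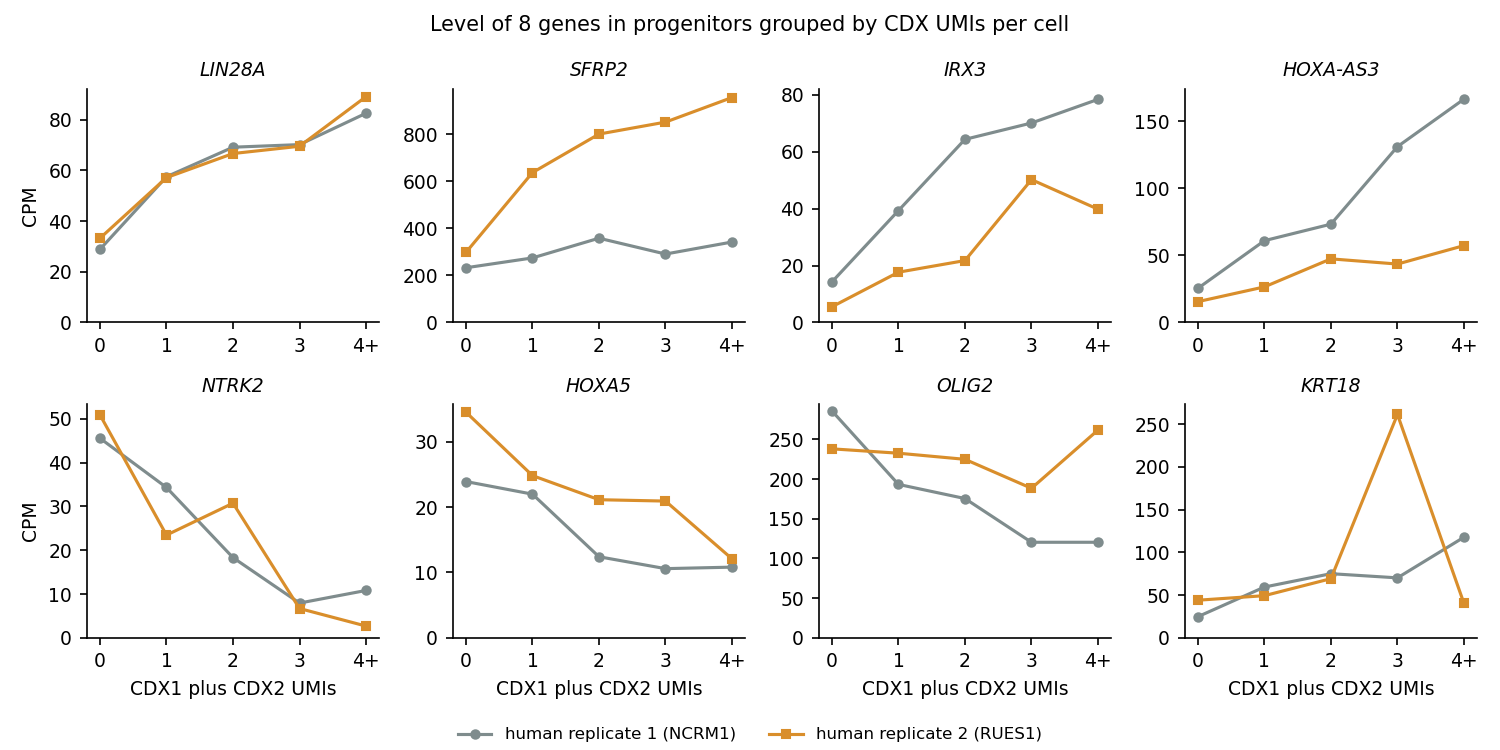
Level of 8 genes (vertical axes, CPM) in progenitors grouped by CDX1 plus CDX2 UMIs per cell (horizontal axes) in replicate 1 (grey circles) and replicate 2 (orange squares). LIN28A is higher and HOXA5 lower at 4 or more UMIs than at 0 UMIs in both libraries, OLIG2 differs between the libraries, and the KRT18 peak at 3 UMIs in replicate 2 (261 CPM) includes the member with 459 keratin UMIs.

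Within the members, cells with CDX1 alone and cells with CDX2 alone differed in the dorsoventral code. OLIG2 stood at 55.4 CPM in CDX1-only, 201 CPM in CDX2-only and 136 CPM in double-positive members of replicate 1. In replicate 2 it stood at 178, 277 and 241 CPM. NKX2-2 gave 0 CPM in CDX1-only members of both libraries and 2.39 and 24.8 CPM in CDX2-only members, and LHX3 gave 0 and 2.43 CPM against 11.9 and 21.9 CPM. A count of 0 in CDX1-only members allows up to 4.81 CPM in replicate 1 and 2.30 CPM in replicate 2, so the NKX2-2 difference was not detectable at this depth in replicate 1. PAX6 had the opposite order, at 104 against 62.1 CPM and 103 against 36.8 CPM, and so had SFRP2, at 469 against 276 CPM and 1208 against 412 CPM. NTRK2 was at 9.77 and 2.43 CPM in CDX1-only and at 24.7 and 31.8 CPM in CDX2-only members. These subsets held 35 to 77 cells, and no test was made between them.

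OLIG2 was detected at full depth in 135 of 226 members of replicate 1 (59.7%) and in 154 of 182 of replicate 2 (84.6%). OLIG2-negative members had more IRX3 (97.3 against 54.4 CPM and 75.1 against 30.5 CPM) and more PAX6 (95.3 against 68.4 CPM and 113 against 61.7 CPM) than OLIG2-positive members. They had less NKX6-1, a factor of ventral progenitors (35.3 against 74.6 CPM and 24.6 against 78.2 CPM). The OLIG2-negative members numbered 91 and 28, and the 28 of replicate 2 also held more transcripts of other cell types than its OLIG2-positive members. LUM stood at 150.2 against 6.75 CPM there, COL1A2 at 162 against 3.49 CPM, KRT18 at 468 against 43.3 CPM and TTR at 124 against 0 CPM, and their part in the differences was not tested. In replicate 1 LUM stood at 0.667 against 0 CPM and COL1A2 at 13.3 against 1.24 CPM. LIN28A had no common order, at 90.6 against 64.3 CPM in replicate 1 and 66.4 against 79.1 CPM in replicate 2.

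The comparison was repeated with OLIG2-positive cells of both classes, which leaves out most mesodermal cells: LUM stood at 6.75 against 7.57 CPM there in replicate 2. Of 11931 genes, 161 (1.35%) were higher and 248 (2.08%) lower in CDX-positive cells, with 64 and 160 of the earlier calls among them. The early-stage list then had 5 of 13 genes higher (LIN28A, LIN28B, PRTG, HMGA2 and IGF2BP1) and 0 lower, a count that again includes the named marker LIN28A. LIN28A differed by 1.15 on the log2 scale (edgeR adjusted p = 8.99e-03). The late list had 0 of 16 higher and 6 lower, which were SOX9, TTYH1, NTRK2 and POU3F3 of the earlier calls together with FABP7 and OLIG1. Of the other earlier calls, ZBTB20 was not called there (-0.94, edgeR adjusted p = 0.055), and NFIB and PDGFRA had too few counts to be tested. The proneural list had 0 of 14 higher and 5 lower. Of 11 tested ventral and intermediate genes, IRX3 and IRX5 were higher and OLIG2, NKX2-2 and LHX3 were lower. OLIG2 stood at 233 against 356 CPM in replicate 1 and at 270 against 370 CPM in replicate 2. These cells were chosen on their OLIG2 UMIs, and a condition of at least 1 UMI admits lower levels in the deeper CDX-positive cells. HOXA5 (-1.18), HOXA4 (-1.62), HOXB6 (-0.96) and HOXD8 (-1.34) were lower and HOXA9 was called too (-1.13, edgeR adjusted p = 0.0411). The mesoderm list had 0 of 7 tested genes called in either direction. HES5 (0.45, edgeR adjusted p = 0.118) and VIM (-0.65, edgeR adjusted p = 0.0535) were no longer called, and NTRK2 was (-1.86, edgeR adjusted p = 6.00e-03).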

How the data were processed

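Raw UMI counts per gene and cell were deposited by the authors as text tables, and all values here derive from these counts. Cell Ranger 3.1.0 and the builds hg38 and mm10 are named in the submitters' processing notes. The annotations, and any removal of empty droplets or doublets, are not given in the sources used here. Entries with the same symbol were merged by adding their counts, and T was read as TBXT. Cells were filtered and gated as stated in the results, and thinning used 1 random draw (seed 1). Counts were summed over the cells of a class in each library and tested with edgeR 4.0.16 (R 4.3.3) with TMM scaling, filterByExpr and Benjamini-Hochberg adjustment over all genes tested at 0.05. Shares have exact Clopper-Pearson 95% intervals (scipy 1.17.1). Scripts were tested on simulated data.

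The numbering pairs the classes because both came from the same library, and the library was therefore a block. Scrublet (scanpy 1.11.5, expected rate 5%) called 15 and 21 human cells doublets, 1 and 1 of them members; doublets were kept, and their removal was an alternative. The members, marker genes and gene lists were chosen with earlier results of these data known. Named genes were the gate genes and given markers, HOX, caudal, early-stage and late genes, the called and the 3 most abundant genes of the other lists, and the 12 highest and 12 lowest fold changes among called genes with at least 20 CPM in 1 class of both libraries. Others are said to be selected after their values were seen, and NKX6-1 in the comparison of OLIG2-negative members belongs to the ventral list. Alternatives were DESeq2 1.42.0, other scaling, filters, gates and cell sets.

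The marker lists of floor plate and neural crest had 1 of 3 and 2 of 2 tested genes called lower in CDX-positive cells (1.71% of all genes were). The list of BMP signalling had 0 of 16 tested genes called. In the list of blood and endothelium 0 genes had enough counts to be tested, so it gives no result. One HOX gene is not reported here and is left out of the HOX counts and sums. No mature miRNA, promoter or protein sequence was used here.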

Additional observations from a re-analysis of the deposited data

Results flagged for a closer look

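The share of cells with an OLIG2 UMI at 7000 UMIs per cell differed between CDX-positive and CDX-free progenitors by -22.3 percentage points in replicate 1 and by 10.0 points in replicate 2. The opposite directions of this share in the 2 lines drew attention here, and the difference between the libraries was not tested. By level, OLIG2 was at 144 against 286 CPM in replicate 1 and nearly level in replicate 2 (233 against 238 CPM). Without cells of 3 or more UMIs of other cell types it was lower in CDX-positive cells of both libraries (147 against 310 CPM and 249.6 against 398 CPM). Mesodermal markers summed to 45.3 and 842 CPM in the CDX-free cells of the 2 libraries, and their part in the difference was not tested beyond the cell sets given in the results.

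In cells outside the comparison, 9.92% of the neurons of replicate 1 and 9.35% of those of replicate 2 held 2 or more CDX UMIs, almost all of CDX2. After thinning to 7000 UMIs the shares were 6.75% and 4.32%. In the mouse files the same gate found 9 progenitors of 1474 in replicate 2 and 1 of 1198 in replicate 1.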

How the results depend on the processing

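Counts of genes called higher and lower in CDX-positive cells moved most with the test and with the cells kept. They were 80 and 215 in the analysis as reported, 28 and 68 with DESeq2, 145 and 274 with edgeR on DESeq2 size factors, 195 and 605 with no filter on low counts, 8 and 11 with a mitochondrial share of at most 5% (146 and 73 members left), and 0 and 0 with no replicate block. With at least 3 CDX UMIs they were 130 and 315, with at least 1 they were 250 and 410, and with OLIG2 class as a term they were 137 and 271. OLIG2-positive cells alone gave 161 and 248. Leaving out cells with 3 or more UMIs of other cell types gave 401 and 498. In 2 settings chosen after seeing the data, they were 217 and 395 without keratin-rich cells and 243 and 407 without cells that held 20 or more UMIs of other cell types. Of the 80 and 215 genes, 38 and 108 were called with the gate on thinned cells, and 51 and 128 with counts thinned before summing. No gene called as reported was called the other way in any of these settings, except HSPA6, a heat shock gene named for this reason, with at least 1 CDX UMI (0.92 against -2.63 as reported). Leaving out a library left no test, and the values of single libraries are those in the results.

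The share of CDX-positive cells, 20.06% on average, was 6.44% with the gate on thinned cells, 11.6% at 3 CDX UMIs, 35.0% at 1 and 17.5% at a mitochondrial share of at most 5%. It was 19.4 to 20.8% over single libraries. The OLIG2 share difference, -6.14 points on average, was 0.484 points at full depth and from -22.3 to 10.0 points over single libraries.

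Among the named genes, direction turned for NEUROG1 (0.81), NEUROG2 (0.98) and HOXA9 (0.047) in cells without OLIG2 UMIs, for NEUROG2 (0.12) and DPPA4 (0.046) at a mitochondrial share of at most 5%, for NEUROG2 with OLIG2 class as a term (0.16), for CYP26A1 without cells of 3 or more UMIs of other cell types (0.19) and for TWIST1 without cells of 20 or more (0.12). The cause was not tested. Fewer cells and a residual degree of freedom of 1 limit all tests, and genes under about 20 CPM rest on few UMIs.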

Other observations

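In the neurons of the 2 human libraries, IRX3 was at 60.4 and 60.6 CPM, near or above its level in CDX-positive progenitors. L1TD1 was at 4.28 and 2.60 CPM in neurons, and HOXA-AS3 at 9.35 and 12.99 CPM, both under the CDX-free progenitors. HOXB9 was at 500.4 and 486 CPM in neurons.

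HBE1, an embryonic globin gene, gave 23 UMIs in the members of replicate 1, of which 1 cell held 18, and 0 in replicate 2. LUM gave 133 UMIs in the members of replicate 2, of which 132 lay in 5 cells.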
